A study of Mus musculus with 6 samples.

Results

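The genes described here are those of potassium channel subunits, taken by symbol (Kcn, further letters and a number, without antisense names ending in ot1) from probe sets that GEO's platform annotation pairs with exactly 1 gene. They were 91 of the 19938 genes measured. Of these, 88 were subunit genes and 3 were transcripts named for the opposite strand of Kcnd3 and Kcnmb4. RNA came from W4 cells, a line of mouse embryonic stem cells, after 16 days of neural differentiation. In 1 group, cultures carried valproate (VPA), used against epilepsy and a blocker of histone deacetylases, at 300 uM, and the other group carried its solvent, phosphate-buffered saline (PBS). Each group had 3 arrays, which the design text calls biological replicates of this 1 cell line. The question was how this neurotoxicant alters gene expression during neural differentiation. All 11 neuron markers lay above the background gauge described below in both groups.

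Potassium channels set the resting potential of a neuron and bring it back after each action potential. Alpha subunits form the pore, and auxiliary subunits alter where these channels go and how fast they open and close. Voltage-gated channels (Kv) repolarize the membrane, inward rectifiers (Kir) and tandem-pore channels (K2P) hold it at rest, and calcium-activated channels shape the afterhyperpolarization.

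With VPA, 22 of the 91 genes fell and 14 rose at an adjusted p under 0.05 in limma, fitted and adjusted over all 19938 genes. That is 39.6% of the members, beside 29.2% of all genes, and in the 2 directions the background was 15.7% lower and 13.6% higher. Without VPA replicate 1 the share was 45.1% of the members, beside 41.0% of all genes. By class, 9 of 15 voltage-gated alpha genes were lower and 2 higher, while tandem-pore genes had 3 lower and 3 higher of 14 and inward rectifiers 1 lower and 3 higher of 15. The median change over the 91 genes was -0.01 on the log2 scale (VPA minus PBS), against 0.00 over all genes. The median size of change, sign ignored, was 0.15 in the family and 0.12 over all genes. The VPA and PBS arrays did not overlap for 47 of the 91 genes, beside 44.0% of all genes; 29 were lower and 18 higher, beside 23.8% and 20.2%. In bulk cultures, fewer cells of a type and less RNA per cell cannot be told apart. Of 11 neuron markers 7 fell and 2 rose (median change -0.25), with a summed linear signal of 22540 to 22800 with VPA and 25060 to 26090 with PBS, and the part of this in the changes of channel genes was not tested.

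**Figure D1:**
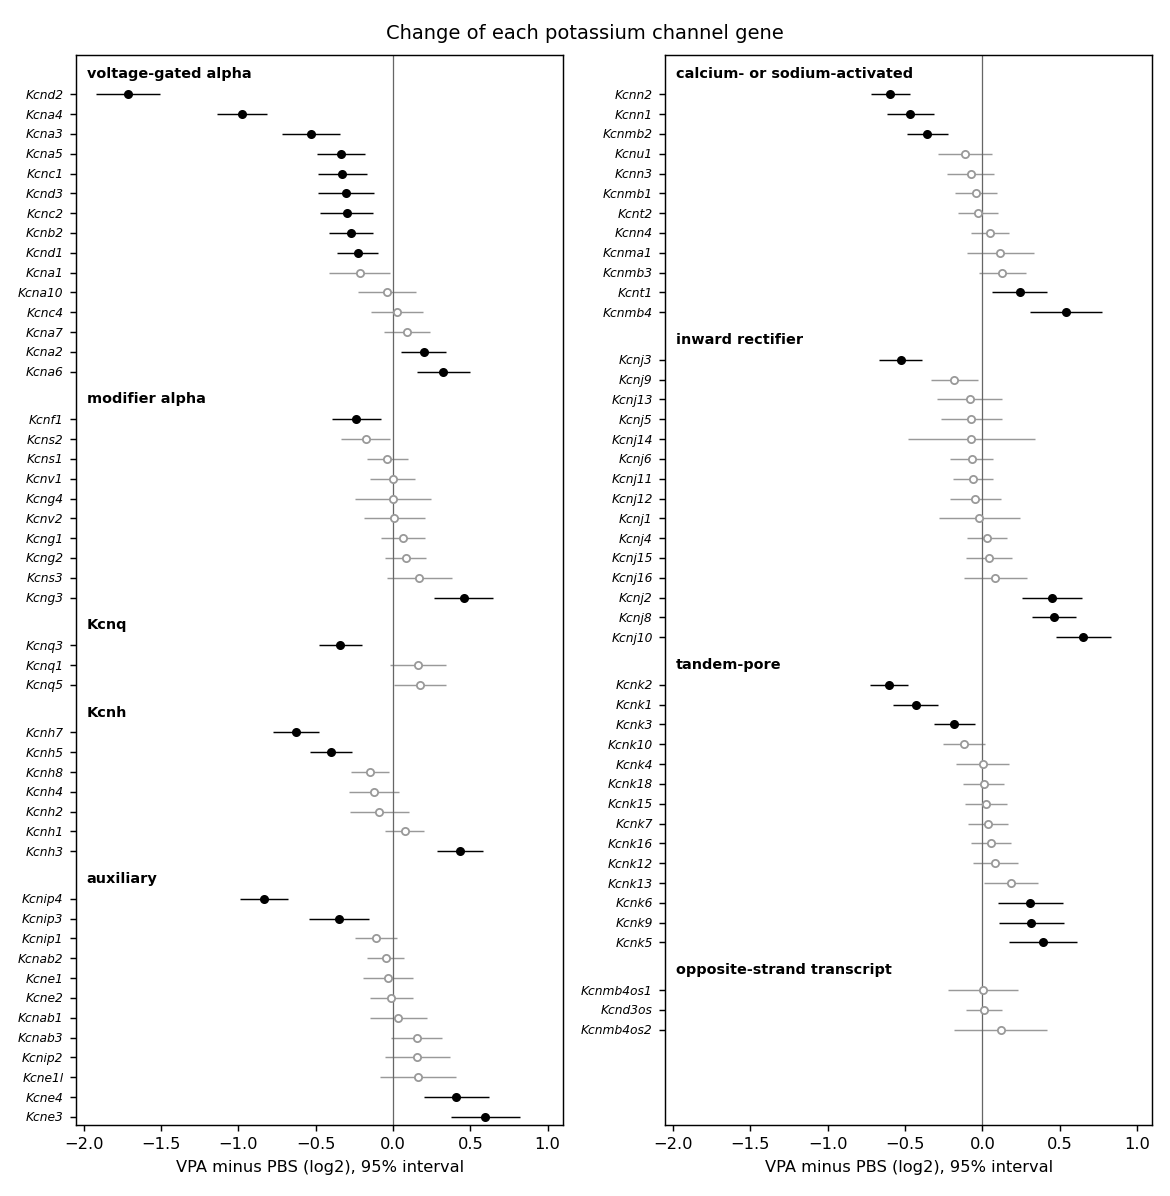
The plot gives, for each of the 91 genes, the change VPA minus PBS on the log2 scale (x axis) with its 95% interval from the limma fit, grouped by class down the page; filled black points passed an adjusted p of 0.05 and open grey points did not. Kcnd2 lies furthest to the left at -1.71 and Kcnj10 furthest to the right at 0.65, and every open point except that of Kcna1 lies within 0.2 of 0.

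Over all genes, PBS arrays differed from each other by a median absolute difference of 0.06 to 0.07 and VPA replicates 2 and 3 by 0.07, while VPA replicate 1 lay 0.12 and 0.13 from the other VPA arrays. No detection calls were used here. The 95th percentile of 1027 olfactory receptor genes, 6.15 on the log2 scale, served as a background gauge. For 20 of the 91 genes both group means lay below it, and they were not told apart from background.

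The changes of at least 0.5 with groups that did not overlap were 8 falls and 3 rises, 11 genes in all. The background for that rule was 3.24% lower and 4.5% higher of all genes (7.74% in either direction). The genes that fell were Kcnd2, Kcna4, Kcnip4, Kcnh7, Kcnk2, Kcnn2, Kcna3 and Kcnj3, and those that rose were Kcnj10, Kcne3 and Kcnmb4. Both means of Kcne3 and the VPA mean of Kcna4 lay below the gauge, so the size of these 2 changes is not defined. Among these falls Kcnip4 is an auxiliary gene, and the others are pore-forming genes of voltage-gated, calcium-activated, inward rectifier and tandem-pore channels.

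**Figure D2:**
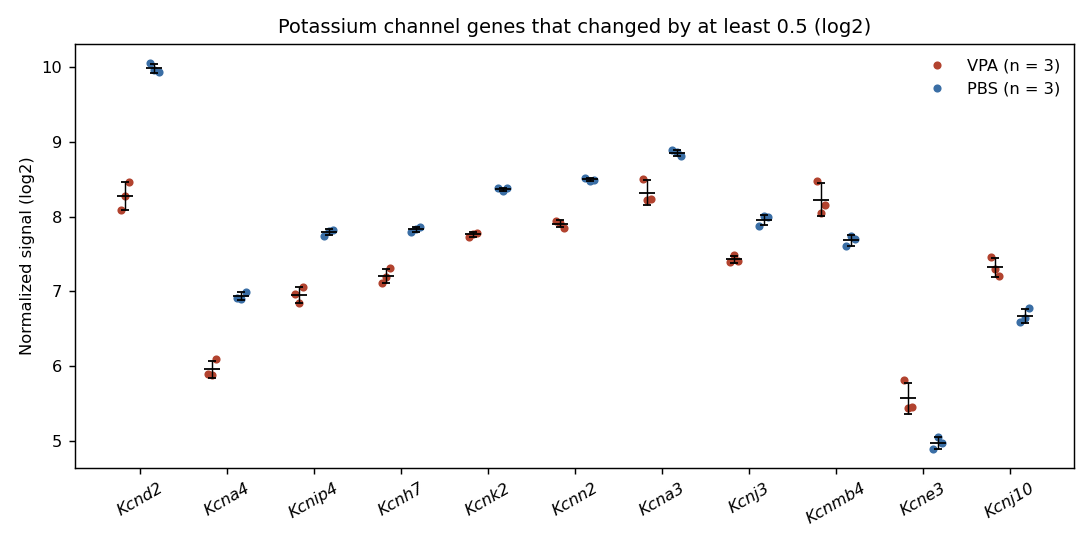
The plot shows the normalized log2 signal (y axis) on each array for the 11 genes that changed by at least 0.5, VPA in red at the left and PBS in blue at the right of each gene; bars are the mean and SD (n = 3 each). In every one of the 11 genes the 3 VPA points stand apart from the 3 PBS points, and levels are not comparable between genes.

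The promoters of the genes with the largest falls and rises that have a single promoter entry in RefSeq (GRCm38.p6) are printed so that their base composition can be seen beside the changes. They are Kcnd2 (chr6:21215096-21215395, plus strand), Kcna4 (chr2:107290339-107290638, plus strand), Kcnj10 (chr1:172340960-172341259, plus strand) and Kcnmb4 (chr10:116473474-116473773, minus strand). Each runs from 250 bases before to 50 bases after the annotated start, and capitals mark CG dinucleotides.
Kcnd2: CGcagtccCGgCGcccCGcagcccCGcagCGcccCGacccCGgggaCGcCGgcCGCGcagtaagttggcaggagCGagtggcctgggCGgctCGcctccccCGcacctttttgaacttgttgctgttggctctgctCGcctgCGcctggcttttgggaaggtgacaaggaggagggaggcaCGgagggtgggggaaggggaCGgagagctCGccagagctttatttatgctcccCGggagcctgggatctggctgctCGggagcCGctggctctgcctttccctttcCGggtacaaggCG
Kcna4: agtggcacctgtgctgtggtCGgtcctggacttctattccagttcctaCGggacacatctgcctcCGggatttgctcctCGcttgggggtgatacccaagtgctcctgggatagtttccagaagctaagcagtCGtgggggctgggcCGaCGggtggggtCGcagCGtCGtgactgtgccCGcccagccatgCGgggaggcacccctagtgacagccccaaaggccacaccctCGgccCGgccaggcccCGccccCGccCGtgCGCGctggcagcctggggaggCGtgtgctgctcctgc
Kcnj10: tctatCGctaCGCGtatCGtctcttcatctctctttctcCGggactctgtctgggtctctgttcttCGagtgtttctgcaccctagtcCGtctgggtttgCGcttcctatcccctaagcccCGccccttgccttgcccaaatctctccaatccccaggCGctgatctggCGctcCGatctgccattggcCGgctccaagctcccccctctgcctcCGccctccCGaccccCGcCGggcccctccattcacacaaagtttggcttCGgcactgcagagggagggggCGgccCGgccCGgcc
Kcnmb4: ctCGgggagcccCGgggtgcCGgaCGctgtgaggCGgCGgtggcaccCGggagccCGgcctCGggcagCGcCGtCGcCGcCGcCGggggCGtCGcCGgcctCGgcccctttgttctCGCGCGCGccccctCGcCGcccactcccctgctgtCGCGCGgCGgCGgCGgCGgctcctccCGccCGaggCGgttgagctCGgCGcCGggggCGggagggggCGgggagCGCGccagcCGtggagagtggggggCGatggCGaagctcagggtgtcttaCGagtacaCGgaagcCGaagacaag
All 4 are rich in CG, with 26 in Kcnd2 and 20 in Kcna4, which fell, and 21 in Kcnj10 and 48 in Kcnmb4, which rose. Of the 88 subunit genes 67 had an entry, 92 promoters in all. Their median was 9 CG per promoter, 18 for genes that rose (11 promoters), 10 for genes that fell (27) and 8 for the rest (54), against 7 over 32851 promoters. The range was 4 to 49 among genes that rose and 3 to 41 among genes that fell, so the groups overlapped widely. The left and right parts of the element bound by the repressor REST, TTCAGCACC and GGACAGCGC, searched on both strands, matched 0 and 1 of the 92 promoters (the 1 was that of Kcnj4, which did not pass the test), against 0.371% and 0.405% of all promoters. TATAAA, likewise on both strands, was in 5 of 92, all of genes that did not pass, against 13.6% of all promoters. A match, or the lack of one, is only a description of these letters in this window. At the shares of the REST parts over all promoters, 92 promoters are too few for 0 or 1 matches to tell the family from other genes.

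Among voltage-gated alpha subunits, the A-type genes of the Kv4 family were all lower with VPA, 3 of 3. Kcnd2, which encodes the pore of the somatodendritic A-type current, had log2 signals of 8.09, 8.27 and 8.46 with VPA, against 10.05, 9.97 and 9.94 with PBS. The groups were far apart, with the highest VPA array well below the lowest PBS array. Its change was -1.71 (SE 0.09, adjusted p = 4.34e-06), a 3.28-fold lower signal with a 95% interval of -1.92 to -1.50 on the log2 scale. Kcnd3 averaged 8.95 ± 0.15 with VPA and 9.25 ± 0.04 with PBS (SD, n = 3 each), a change of -0.30 (SE 0.08, adjusted p = 0.020). Kcnd1 averaged 6.88 ± 0.05 with VPA and 7.11 ± 0.04 with PBS, a change of -0.23 (SE 0.06, adjusted p = 0.0162). The interval of Kcnd2 overlapped neither that of Kcnd3, -0.48 to -0.12, nor that of Kcnd1, -0.36 to -0.10; the differences between these genes were not tested. Kcnd3os, a transcript from the strand opposite Kcnd3, differed by 0.01 (95% interval -0.11 to 0.13). The call of Kcnd3 was lost when any 1 array other than VPA replicate 1 was left out (adjusted p 0.0572 to 0.0794), and that of Kcnd1 without VPA replicate 2 (0.0611) or PBS replicate 2 (0.0809).

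Auxiliary subunits of Kv4 channels were measured beside them. The KChIPs are calcium-binding proteins that bring Kv4 channels to the surface, and 2 of 4 fell. Kcnip4 had 6.96, 6.84 and 7.06 with VPA, against 7.74, 7.80 and 7.82 with PBS. All 3 VPA arrays were lower than every PBS array, and the change was -0.84 (SE 0.07, adjusted p = 4.01e-05). Kcnip3, whose product is also a calcium-dependent transcriptional repressor, changed by -0.35 (SE 0.09, adjusted p = 0.0147). Kcnip1 differed by -0.11 and Kcnip2 by 0.16, and neither passed. Outside the Kcn symbols, both DPP-like partners of Kv4 were lower too, Dpp10 by -0.47 (SE 0.08, adjusted p = 0.00214) and Dpp6 by -0.32 (SE 0.07, adjusted p = 0.012). Without VPA replicate 2, PBS replicate 1 or PBS replicate 2 the call of Kcnip3 was lost (adjusted p 0.0528, 0.0532 and 0.0578), and that of Dpp6 without PBS replicate 2 (0.0504) or PBS replicate 3 (0.0527). With the mean of its probe sets Dpp6 differed by -0.20 (adjusted p = 0.0674), and without moderation of the variances its adjusted p was 0.0722.

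**Figure D3:**
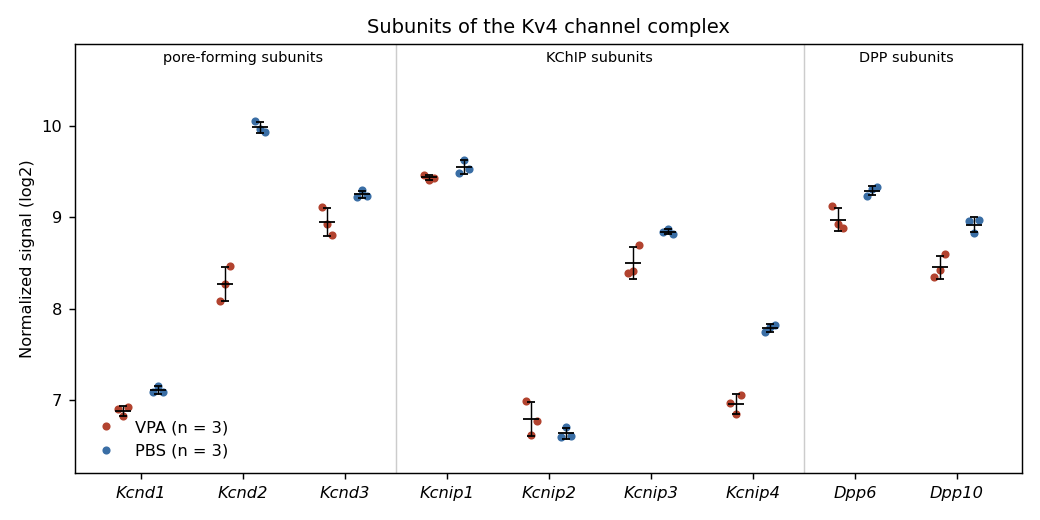
The plot gives the normalized log2 signal (y axis) on each array for the pore-forming, KChIP and DPP-like genes of the Kv4 complex, VPA in red at the left and PBS in blue at the right of each gene, with mean and SD (n = 3 each). The VPA arrays lie below the PBS arrays for each gene except Kcnip2, whose groups overlap.

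Kv1 genes, whose channels sit mainly on axons, went both ways, with 3 of 8 lower and 2 higher. Kcna4, which encodes the fast-inactivating Kv1 subunit, had 5.90, 5.88 and 6.09 with VPA, against 6.91, 6.90 and 6.995 with PBS. The groups lay far apart, and the change was -0.98 (SE 0.07, adjusted p = 2.15e-05). Its VPA mean of 5.96 lay below the background gauge, so the true size of this fall is not defined. Kcna3, a subunit best known from lymphocytes and also found in neurons, had 8.51, 8.22 and 8.24 with VPA, against 8.89, 8.87 and 8.81 with PBS. Here VPA replicate 1 was nearest to the PBS arrays and the groups still did not overlap. Its change was -0.53 (SE 0.08, adjusted p = 0.00142). Kcna5 passed at -0.33 (SE 0.07), but both of its means, 5.54 with VPA and 5.87 with PBS, lay below the gauge.

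In the other direction, Kcna6 had 8.19, 7.99 and 8.04 with VPA, against 7.64, 7.85 and 7.75 with PBS, a rise of 0.33 (SE 0.08, adjusted p = 0.012). Kcna2, a main subunit of axonal Kv1 channels, rose by 0.20 (SE 0.06, adjusted p = 0.0453). Kcna1, which often assembles with it, differed by -0.22 (95% interval -0.41 to -0.02, adjusted p = 0.10) and did not pass. These calls changed in some fits with 1 array left out. Without VPA replicate 1 Kcna1 passed at -0.27 (adjusted p = 0.0358), while without VPA replicate 3 its change was -0.12. The rise of Kcna6 was lost without PBS replicate 1 (0.0567). Kcna2 did not pass when any 1 array other than VPA replicate 3 was left out (adjusted p 0.0542 to 0.169), and its dimmer probe set differed by 0.07 (adjusted p = 0.498).

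Of the Kv2 and Kv3 genes, Kcnb2 and 2 of 3 Kcnc genes fell. Kcnc1 and Kcnc2 encode the fast Kv3 channels of fast-spiking neurons. Kcnc1 had 7.63, 7.50 and 7.41 with VPA, against 7.79, 7.90 and 7.83 with PBS, a change of -0.33 (SE 0.07, adjusted p = 0.00784). Kcnc2 changed by -0.30 (SE 0.08, adjusted p = 0.0169), and Kcnb2, a Kv2 gene, by -0.27 (SE 0.06, adjusted p = 0.0119), whereas Kcnc4 differed by 0.03 and did not pass. Without PBS replicate 2 the calls of Kcnb2 (adjusted p = 0.0627) and Kcnc2 (0.0757) were lost, and likewise without PBS replicate 3 (0.0522 and 0.0559). The count of voltage-gated alpha genes that fell was 9 with all arrays. It was 5 without PBS replicate 2 and 6 without PBS replicate 3, and ranged up to 10 without VPA replicate 1. In these fits 19.2%, 20.4% and 41.0% of all genes passed, in that order, beside 29.2% with all arrays.

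The modifier alpha genes (Kcnf, Kcng, Kcns and Kcnv) make no channel alone and alter Kv2 channels, and 1 of 10 fell and 1 rose. Kcng3 had 7.42, 7.30 and 7.08 with VPA, against 6.81, 6.85 and 6.76 with PBS, a rise of 0.46 (SE 0.08, adjusted p = 0.00372). Kcnf1 changed by -0.24 (SE 0.07, adjusted p = 0.0313). The other 8 lay between -0.18 and 0.17. Without VPA replicate 1 the number higher was 2, in a fit where 41.0% of all genes passed. The call of Kcnf1 was lost without VPA replicate 2 or any 1 PBS array (adjusted p 0.0747 to 0.117).

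Of the 3 Kcnq genes measured, Kcnq3 fell. Kcnq3 forms the slow M-current that restrains repeated firing. It had 8.27, 8.35 and 8.22 with VPA, against 8.57, 8.69 and 8.60 with PBS, a change of -0.34 (SE 0.06, adjusted p = 0.00315). Kcnq5, which can contribute to the same current, differed by 0.17 (95% interval 0.01 to 0.34, adjusted p = 0.113), and Kcnq1, known from heart and epithelia, by 0.16 (adjusted p = 0.172). Neither passed. Without VPA replicate 1 the number of Kcnq genes higher was 2, in a fit where 41.0% of all genes passed.

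The Kcnh family holds the ether-a-go-go channels, a branch of the voltage-gated channels, and 2 of 7 fell and 1 rose. Kcnh7, an Erg-type gene, had 7.12, 7.19 and 7.31 with VPA, against 7.79, 7.84 and 7.86 with PBS. The groups lay well apart, with a change of -0.63 (SE 0.07, adjusted p = 0.000154). Kcnh5, an Eag-type gene, changed by -0.40 (SE 0.06, adjusted p = 0.00109). Kcnh3, an Elk-type gene of the forebrain, went the other way with 7.48, 7.41 and 7.30 with VPA, against 6.96, 7.02 and 6.91 with PBS, a rise of 0.43 (SE 0.07, adjusted p = 0.00129). The calls of these 3 genes held when any 1 array was left out. Without VPA replicate 1, the number of Kcnh genes lower was 4, in a fit where 41.0% of all genes passed.

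Of the calcium- or sodium-activated genes 3 of 12 fell and 2 rose. The small-conductance (SK) channels produce the afterhyperpolarization that follows a spike, and Kcnn2 and Kcnn1 were lower. Kcnn2 had 7.95, 7.91 and 7.85 with VPA, against 8.52, 8.48 and 8.49 with PBS. Its replicates lay within 0.1 of each other in each group, and the change was -0.59 (SE 0.06, adjusted p = 8.2e-05). Kcnn1 had 7.50, 7.34 and 7.52 with VPA, against 7.94, 7.86 and 7.97 with PBS, a change of -0.47 (SE 0.07, adjusted p = 0.000957). Kcnn3 differed by -0.08 and Kcnn4 by 0.05, and neither passed.

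The large-conductance (BK) channel has a pore from Kcnma1 and tissue-specific beta subunits. Kcnmb4, the beta subunit of neurons, had 8.47, 8.05 and 8.15 with VPA, against 7.60, 7.74 and 7.70 with PBS. VPA replicate 1 was the highest array and all 3 VPA arrays exceeded all PBS arrays, with a rise of 0.54 (SE 0.10, adjusted p = 0.00418) that was 0.42 without VPA replicate 1. The transcripts from its opposite strand, Kcnmb4os1 and Kcnmb4os2, differed by 0.00 (95% interval -0.22 to 0.23) and 0.12 (-0.18 to 0.42) and did not pass. Kcnmb2 changed by -0.36 (SE 0.06, adjusted p = 0.00192), with a VPA mean of 6.03 below the gauge. Kcnt1, a sodium-activated channel gene, rose by 0.24 (SE 0.08, adjusted p = 0.0453), a call lost when any 1 array other than VPA replicate 2 was left out (adjusted p 0.0511 to 0.168).

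The direction for Kcnma1 depended on its probe set. The brighter one, used by the rule, had 8.74, 8.34 and 8.43 with VPA, against 8.36, 8.39 and 8.42 with PBS. The groups overlapped, and the difference of 0.12 (SE 0.10, adjusted p = 0.415) was -0.0006 without VPA replicate 1 and 0.20 without VPA replicate 2. The platform annotation pairs that probe set with 4 accessions, 0 of them RefSeq transcripts. The dimmer one is paired with 17 RefSeq transcripts among 20 accessions. It had 7.65, 7.60 and 7.59 with VPA, against 8.20, 8.29 and 8.27 with PBS, a change of -0.64 (SE 0.06, adjusted p = 7.2e-05 over 21789 probe sets). The groups stood apart there by more than 0.5. A fit that gave preference to probe sets with a RefSeq transcript was chosen after seeing the data. In it 23 of the 91 genes were lower and 14 higher (40.7%, beside 29.3% of all genes).

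**Figure D4:**
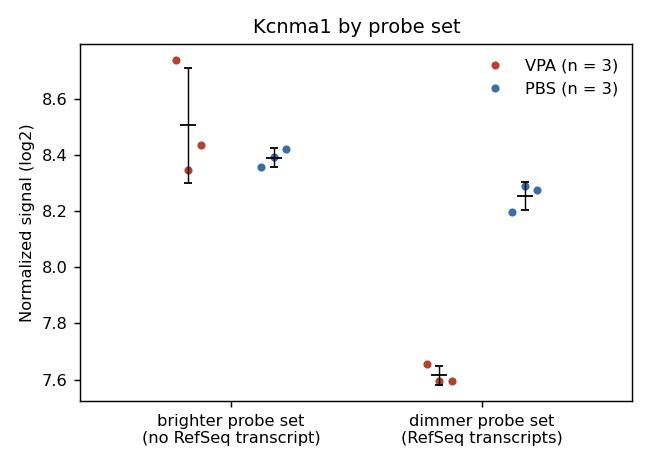
The plot shows the normalized log2 signal (y axis) on each array for both probe sets of Kcnma1, VPA in red at the left and PBS in blue at the right of each pair, with mean and SD (n = 3 each). The arrays overlap in the brighter probe set, where VPA replicate 1 is highest, and stand apart in the dimmer one, at 7.61 with VPA and 8.25 with PBS.

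Among inward rectifiers, 3 of 15 rose and 1 fell, and both means of 8 of the 15 lay below the gauge. Kcnj10, the main potassium channel of astrocytes and other glia, had 7.46, 7.31 and 7.21 with VPA, against 6.59, 6.64 and 6.77 with PBS. Every VPA array was above every PBS array, and the rise of 0.65 (SE 0.08, adjusted p = 0.000373) was the largest in the family. Of 8 astrocyte markers 1 rose and 3 fell, with sums of 3848 to 4108 with VPA and 3692 to 4164 with PBS, and Aqp4, Gjb6 and S100b lay below the gauge in both groups. Without Aldoc the other 7 astrocyte markers summed to 2174 to 2297 with VPA and 2403 to 2587 with PBS. Without Slc1a3 the sums overlapped, at 2900 to 3131 with VPA and 2851 to 3223 with PBS. The part of the astrocyte markers in this rise was not tested. Kcnj8, the ATP-sensitive channel pore of pericytes and vascular smooth muscle, had 6.43, 6.53 and 6.56 with VPA, against 5.98, 6.10 and 6.05 with PBS, a difference of 0.46 (SE 0.06, adjusted p = 0.000686). Of 8 markers of pericytes and smooth muscle 3 rose and 1 fell, with sums of 1354 to 1638 with VPA and 899 to 953 with PBS, and the markers Rgs5, Tagln and Cnn1 lay below the gauge in both groups. Their part was not tested. Kcnj2, a strong rectifier of muscle and neurons, rose by 0.45 (SE 0.09, adjusted p = 0.00456). The PBS means of Kcnj8 and Kcnj2, 6.04 and 5.80, lay below the gauge, so the true sizes of these rises are not defined. Without VPA replicate 3 the number of inward rectifier genes lower was 2, in a fit where 24.8% of all genes passed.

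Kcnj3 encodes a subunit of the G-protein-activated channel that mediates slow inhibition by neurotransmitters. It had 7.40, 7.49 and 7.40 with VPA, against 7.87, 8.01 and 7.99 with PBS, a change of -0.53 (SE 0.06, adjusted p = 0.000285). Its partner Kcnj6 lay below the gauge in both groups and differed by -0.07 (95% interval -0.21 to 0.07, -0.04 without VPA replicate 1), and Kcnj9, another partner, by -0.18 (adjusted p = 0.0734). Kcnj11, the ATP-sensitive channel pore of neurons and beta cells, differed by -0.06 (95% interval -0.19 to 0.07, -0.03 without VPA replicate 3 and -0.09 without VPA replicate 2) and did not pass.

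Of 14 tandem-pore genes, which carry background leak current, 3 fell and 3 rose. Kcnk2, the stretch- and lipid-sensitive TREK channel, had 7.73, 7.77 and 7.78 with VPA, against 8.38, 8.34 and 8.38 with PBS. The arrays of each group lay within 0.1 of each other, and the change was -0.60 (SE 0.05, adjusted p = 6.24e-05). Kcnk1, a TWIK channel gene, had 7.76, 7.61 and 7.77 with VPA, against 8.08, 8.20 and 8.16 with PBS, a change of -0.43 (SE 0.06, adjusted p = 0.00122). Kcnk3 changed by -0.18 (SE 0.06, adjusted p = 0.0453). Kcnk9 and Kcnk5, acid-sensitive channel genes like Kcnk3, rose by 0.32 (SE 0.09, adjusted p = 0.0304) and 0.39 (SE 0.10, adjusted p = 0.015), and Kcnk6 rose by 0.31 (SE 0.09, adjusted p = 0.0335). Kcnk9 was the 1 gene of the 36 that passed whose groups overlapped, with 8.94 on VPA replicate 3 and on PBS replicate 2, and the PBS mean of Kcnk5, 5.85, lay below the gauge.

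Several tandem-pore calls were lost in more than 1 of the fits with 1 array left out. The rise of Kcnk9 was lost without VPA replicate 2 (adjusted p = 0.0902), PBS replicate 1 (0.122) or PBS replicate 3 (0.112). Kcnk6 did not pass without VPA replicate 1, VPA replicate 2, PBS replicate 1 or PBS replicate 2 (0.052 to 0.13), and Kcnk3 did not pass without VPA replicate 3 or any 1 PBS array (0.10 to 0.158). The calls of Kcnk1, Kcnk2 and Kcnk5 held when any 1 array was left out. Without moderation of the variances Kcnk5 did not pass (adjusted p = 0.11). Nor did Kcnk6 (0.152), Kcnk9 (0.145) and Kcnk3 (0.0615) in that fit.

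The remaining auxiliary genes are the Kv beta subunits and the single-span Kcne subunits. Of 3 Kcnab genes 0 passed, with changes between -0.05 and 0.15 and unadjusted p from 0.0653 upward. Kcne3 had 5.81, 5.44 and 5.46 with VPA, against 4.89, 5.04 and 4.98 with PBS, a difference of 0.60 (SE 0.10, adjusted p = 0.00207). Kcne4 differed by 0.41 (SE 0.09, adjusted p = 0.00996), and without PBS replicate 1 it no longer passed (0.0502). All 5 Kcne genes lay below the gauge in both groups and were not told apart from background.

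Genes that work with these channels were read from lists, given here by count, beside 15.7% lower and 13.6% higher over all genes. Of 17 measured channel partners 4 fell and 3 rose, with a median change of -0.11. Besides the DPP-like genes, Cntnap2, which clusters Kv1 channels on axons, had 9.16, 9.22 and 9.26 with VPA, against 10.12, 10.04 and 10.12 with PBS, a change of -0.88 (SE 0.06, adjusted p = 1.18e-05). Akap5, a kinase anchor of several channels, changed by -0.35 (SE 0.07, adjusted p = 0.00745, and 0.0595 without moderation of the variances). Abcc9, the partner of Kcnj8, differed by 0.24 (adjusted p = 0.0244) with both means below the gauge. The other rises were Lrrc38 (0.20, both means below the gauge) and Lrrc26 (0.21, PBS mean of 6.08 below the gauge). Of 3 pacemaker Hcn genes, Hcn4 fell by 0.39 on the log2 scale (SE 0.10, adjusted p = 0.022). This call was lost when any 1 array other than VPA replicate 1 was left out (adjusted p 0.0526 to 0.077). It was also lost without moderation of the variances (0.136).

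Of 7 measured pump and cotransporter genes 2 fell and 2 rose, beside 15.7% lower and 13.6% higher over all genes. Slc12a5, the neuronal potassium-chloride cotransporter KCC2, changed by -0.52 (SE 0.07, adjusted p = 0.000705) and the sodium pump subunit gene Atp1b2 by -0.50 (SE 0.08, adjusted p = 0.00177). The cotransporter genes Slc12a4 and Slc12a7, which are expressed outside neurons too, rose by 0.44 (SE 0.06, adjusted p = 0.00104) and 0.30 (SE 0.06, adjusted p = 0.00768). Of 7 genes of the REST corepressor complex, which silences neuronal genes in other cells, 3 rose in limma and 0 fell (1 with an unadjusted p under 0.05). The median change of these 7 genes was -0.01, and 4 of them had a negative change. Rest had 9.34, 9.18 and 9.19 with VPA, against 8.58, 8.57 and 8.65 with PBS, a rise of 0.64 (SE 0.06, adjusted p = 0.00012). Rcor1 rose by 0.28 (SE 0.05, adjusted p = 0.00507) and Sin3a by 0.20 (SE 0.06, adjusted p = 0.0284). The call of Sin3a was lost without VPA replicate 2 or any 1 PBS array (adjusted p 0.0759 to 0.112).

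Markers of other cell types that could carry these channels were read in the same way, beside 13.6% higher and 15.7% lower over all genes. All 7 fibroblast markers rose, with sums of 8453 to 9149 with VPA and 2019 to 2464 with PBS. Of 8 striated muscle markers 6 rose (2205 to 3609 with VPA, 719 to 756 with PBS), of 7 endothelial markers 6 rose (902 to 1055 with VPA, 492 to 539 with PBS), and of 6 measured markers of the oligodendrocyte lineage 2 rose and 3 fell (1576 to 1756 with VPA, 1242 to 1449 with PBS). Without Pdgfra the other 5 oligodendrocyte markers summed to 788 to 935 with VPA and 989 to 1153 with PBS. The striated muscle markers Myl7 and Tnnt1 and the endothelial marker Tek lay below the gauge in both groups. Of 5 microglial markers 0 passed in limma (1 had an unadjusted p under 0.05), 4 of the 5 lay below the gauge in both groups, and their sums were 260 to 291 with VPA and 258 to 274 with PBS. The part of these markers in the changes of the channel genes was not tested.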

How the data were processed

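Expression was measured on 6 Affymetrix arrays of total RNA, 3 with VPA and 3 with PBS. The authors deposited normalized log2 values for each probe set (35556 probe sets, 2.50 to 13.89, array medians 6.99 to 7.03); base 2 was inferred from their range. The submitters' processing notes list Partek 6.5 and mm9, and how background was corrected or arrays normalized is not given in the sources used here. Normalization of arrays to each other makes each change relative to the other genes. Exactly 1 symbol was given for 21789 probe sets, 1621 had several and 12146 had none. Current symbols came from the Entrez ID (21698 matched). The brightest probe set over all 6 arrays stood for each of 19938 genes. Some genes of the family are not reported here. Sequences are from RefSeq (GRCm38.p6).

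VPA was compared with PBS by limma 3.58.1 in R 4.3.3 (lmFit, eBayes, two-sided, Benjamini-Hochberg over all genes, threshold 0.05), a fit tested on simulated arrays. An exact permutation test of 3 against 3 cannot go below 0.1 and was not used. The number of arrays limits the precision. Genes given in detail were those past the threshold that changed by at least 0.5 without overlap, the smallest p in each other class, and a set of well-known members; partner lists gave up to their 4 largest changes among genes that passed. The other members past the threshold, and some that did not pass, were added after their values were seen. Members and lists were chosen with earlier results of these data known. The alternatives were quantile normalization, median centring, filters on dim genes, other variance models, array weights, a replicate block, the mean of probe sets, other thresholds and leaving out each array.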

Additional observations from a re-analysis of the deposited data

How the results depend on the processing

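Of the 36 potassium channel genes that passed, 18 passed in each of the 16 alternative fits in which they were tested, among them Kcnd2, Kcna4, Kcnip4, Kcnh7, Kcnk2, Kcnn2, Kcna3, Kcnj3, Kcnj10 and Kcne3; Kcna5 and Kcne3 were not tested in the fits without dim genes. The 22 genes lower with VPA were 15 to 25 when 1 array was left out, and the 14 higher were 8 to 16, the lowest without PBS replicate 1; in these fits 28.6% to 45.1% of the 91 genes passed, beside 19.2% to 41.0% of all genes. Without moderation of the variances 4 were higher and 17 lower (23.1%, beside 18.7% of all genes). In that fit 16 calls were lost, Kcnmb4 among them (adjusted p = 0.067). At an adjusted p under 0.01 there were 8 higher and 15 lower (25.3%, beside 16.9% of all genes). With a change of at least 0.5 there were 3 higher and 8 lower, beside 1549 of all 19938 genes in either direction. With the replicate number as a block 12 were higher and 21 lower (36.3%, beside 27.1% of all genes). The correlations of same-numbered arrays' deviations were -0.02, -0.01 and 0.02, so the numbers were not taken as pairs. The difference for Kcnma1, 0.12, was -0.26 with the mean of its probe sets, -0.64 with the probe set that has RefSeq transcripts, and -0.0006 to 0.1954 when 1 array was left out. Over all genes 5825 passed, against 3731 without moderation, 8917 with array weights (where 48.4% of the 91 genes passed, beside 44.7% of all genes) and 3836 without PBS replicate 2. For Kcnk3 the call was lost after quantile normalization (adjusted p = 0.121) and for Kcna2 and Kcnk3 after median centring (0.058 and 0.0519); the cause was not tested. Low signal limits the 20 genes below the background gauge. With genes left out whose mean over all arrays lay below the gauge, 68 members were tested. Of these, 10 were higher and 22 lower (47.1%, beside 39.2% of all genes tested in that fit).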
